A study of Mus musculus with 8 samples.

Results

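The 8 genes whose products write, maintain and remove DNA methylation (Dnmt1, Dnmt3a, Dnmt3b, Dnmt3l, Uhrf1, Tet1, Tet2 and Tet3) were examined among the 54146 genes of a single-cell RNA-seq data set. They were taken by gene symbol and not by a cut on a measured value, but the choice was made with earlier results of these data known. In GRCm38 they are protein-coding genes at chr9:20907209-20959888 (Dnmt1), chr12:3806007-3914443 (Dnmt3a), chr2:153649450-153687730 (Dnmt3b), chr10:78041947-78063622 (Dnmt3l), chr17:56303321-56323486 (Uhrf1), chr10:62804570-62908996 (Tet1), chr3:133463679-133545139 (Tet2) and chr6:83362373-83459084 (Tet3). Mouse E14 embryonic stem (mES) cells were grown on gelatin with mouse embryonic fibroblast (MEF) feeder cells for 2 days in medium with LIF and 2 kinase inhibitors (LIF/2i), and were either untreated (Control) or treated with CX-5461, an inhibitor of RNA polymerase I. The dose and length of treatment of the single-cell samples are not given in the sources used here. Although 4 samples per condition are labelled, all barcodes of a condition lie in 1 table with no sample of origin, so each condition was 1 library and no test between conditions was possible. Intervals given in parentheses are exact 95% intervals and cover counting error only, not the difference between cultures. Those of levels and ratios treat pooled UMIs as independent, so variation between cells is left out as well.

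In mammals, 5-methylcytosine is written at CpG sites by Dnmt3a and Dnmt3b, which are helped by Dnmt3l, a relative without catalytic activity. After each round of replication Uhrf1 binds the half-methylated sites and brings Dnmt1, the maintenance methyltransferase, to copy the mark onto the new strand. The dioxygenases Tet1, Tet2 and Tet3 oxidise 5-methylcytosine, which leads to its removal by dilution or by repair. In mES cells kept in LIF/2i the genome is known to carry little DNA methylation, and low Uhrf1 and Dnmt3 activity together with Tet1 and Tet2 are held to set that state. Tet3 is best known from the zygote, where it oxidises the paternal genome.

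All 8 members had RefSeq promoter windows (GRCm38.p6, 250 bases before to 50 bases after a transcription start), 15 windows in all. The 5 windows below are shown because Uhrf1, Tet1, Tet2 and Tet3 stood farthest from the other genes after CX-5461, and because Dnmt1 is the partner of Uhrf1. Of the 2 windows of Uhrf1 and the 3 of Dnmt1, the one that holds the motif described next is shown. They were searched on both strands for TTTNGCGC, a motif of the E2F factors that act on many S-phase genes, and each match is in capitals. The windows are chr17:56304063-56304362 (plus strand) for Uhrf1, chr9:20952574-20952873 (minus strand) for Dnmt1, chr10:62887275-62887574 (minus strand) for Tet1, chr3:133544341-133544640 (minus strand) for Tet2 and chr6:83441629-83441928 (minus strand) for Tet3, each written 5′ to 3′ along the gene.
Uhrf1: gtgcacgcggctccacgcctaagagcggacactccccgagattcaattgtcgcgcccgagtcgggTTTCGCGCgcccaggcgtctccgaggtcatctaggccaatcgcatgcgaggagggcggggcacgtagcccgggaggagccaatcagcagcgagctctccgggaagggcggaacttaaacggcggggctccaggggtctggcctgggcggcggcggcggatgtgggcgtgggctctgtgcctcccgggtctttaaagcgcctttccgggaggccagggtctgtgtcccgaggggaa
Dnmt1: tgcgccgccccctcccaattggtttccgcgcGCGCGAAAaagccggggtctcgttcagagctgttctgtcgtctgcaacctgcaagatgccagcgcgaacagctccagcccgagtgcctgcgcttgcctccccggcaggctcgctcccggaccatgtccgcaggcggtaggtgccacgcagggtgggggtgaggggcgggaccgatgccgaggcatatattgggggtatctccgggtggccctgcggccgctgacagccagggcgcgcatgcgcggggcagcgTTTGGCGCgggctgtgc
Tet1: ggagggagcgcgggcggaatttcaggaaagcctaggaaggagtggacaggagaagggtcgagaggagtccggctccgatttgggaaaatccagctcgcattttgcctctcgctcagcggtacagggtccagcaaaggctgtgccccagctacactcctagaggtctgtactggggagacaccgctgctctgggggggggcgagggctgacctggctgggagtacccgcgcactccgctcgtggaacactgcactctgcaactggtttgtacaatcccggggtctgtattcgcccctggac
Tet2: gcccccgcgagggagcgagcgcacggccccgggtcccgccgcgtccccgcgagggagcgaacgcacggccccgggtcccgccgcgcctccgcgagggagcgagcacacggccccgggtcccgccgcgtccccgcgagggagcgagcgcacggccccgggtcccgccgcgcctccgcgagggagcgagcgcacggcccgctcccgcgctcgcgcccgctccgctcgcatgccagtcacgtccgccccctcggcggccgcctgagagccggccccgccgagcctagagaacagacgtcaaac
Tet3: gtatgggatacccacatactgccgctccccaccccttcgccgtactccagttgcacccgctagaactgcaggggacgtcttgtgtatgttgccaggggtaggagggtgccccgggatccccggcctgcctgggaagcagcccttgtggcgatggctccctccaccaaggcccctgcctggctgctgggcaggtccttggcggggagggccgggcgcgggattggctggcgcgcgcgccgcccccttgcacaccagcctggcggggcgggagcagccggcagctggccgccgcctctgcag
The Uhrf1 window held 1 match, TTTCGCGC, which began 185 bases before the start. The Dnmt1 window held 2 matches, which do not overlap: GCGCGAAA (the motif read from the other strand), 219 bases before the start, and TTTGGCGC, at base 34 counted from the start as 1. No other window of a member held the letters of the motif, so it was found for 2 of 8 members, against 1.57% of all 27025 genes with a window, and in 2 of their 15 windows, against 1.38% of all 32851 windows. Of the genes with a window on lists used below, it was found for 8 of 21 S-phase genes and 1 of 11 maintenance partners. It was found for 0 of 9 de novo partners, 0 of 8 naive genes and 0 of 13 p53 targets. The shares over all genes and windows were not matched for windows per gene or for CpG content. The 5 windows shown differed in CpG content, the substrate of the enzymes themselves: the Tet2 window held 57 CpG sites, more than 99.8% of all windows, the Uhrf1 and Dnmt1 windows shown 33 each (their other windows held 12 for Uhrf1, and 12 and 2 for Dnmt1), the Tet3 window 22 and the Tet1 window 17, where the median of all windows was 7. The 3 windows of Dnmt3l held only 3 to 6. A match of letters is a description of the sequence and was not tied to binding.

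Members were followed in 3 classes of cells. Deep embryonic stem cells (deep ES cells, at least 5000 UMIs, that is, counted RNA molecules) numbered 2469 in Control and 3968 in CX-5461, with a median of 15710 and 14707 UMIs per cell. Pou5f1, which marks pluripotent cells, was found in 99.3% of them in both libraries. Feeder cells carried at least 0.5% of their UMIs on 13 fibroblast markers, 23 cells in Control and 76 in CX-5461. Because these were few, a wider limit of 0.1% was added after the data were seen, with 180 and 155 cells, in which Col1a1, a fibrillar collagen gene, stood at 919 and 1404 CPM (UMIs of a gene as a share of all UMIs of the class, scaled to 1e+06) against 4.92 and 9.95 CPM in deep ES cells. Cells with 5 or more UMIs of Zscan4a-f, genes of the 2-cell-like state, numbered 9 and 51. In deep ES cells the median mitochondrial share was 1.92% in Control and 4.00% in CX-5461, and the 9 primitive endoderm markers summed to 1.97 and 8.93 CPM with none at 0. Their part in the results was not tested.

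In deep ES cells the members of the maintenance pair lay on opposite sides on library totals: Uhrf1 was lower and Dnmt1 higher with CX-5461. Uhrf1 was counted 6558 times in Control and 5017 times in CX-5461, that is, 154 CPM (150 to 157) and 82.2 CPM (80.0 to 84.6). It was 1.87-fold lower with CX-5461 (1.80 to 1.94). Dnmt1, by contrast, was counted 2031 and 4288 times, at 47.6 CPM (45.5 to 49.7) and 70.3 CPM (68.2 to 72.4), which is 1.48-fold higher (1.40 to 1.56). Relative to the median log2 ratio of 11666 genes with at least 200 UMIs, Uhrf1 stood at -1.25. Dnmt1 stood at 0.21 on that scale, short of 1.5-fold. Since both genes were counted in the same cells, their proportion does not depend on how libraries are scaled: there were 3.23 Uhrf1 UMIs for each Dnmt1 UMI in Control (3.07 to 3.40) and 1.17 in CX-5461 (1.12 to 1.22). The windows shown above for these 2 genes were chosen because they hold the E2F-type motif, and a link between it and their levels was not tested.

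The de novo group was mixed and small in level. Dnmt3a had 157 UMIs in Control, 3.68 CPM (3.13 to 4.30), and 416 in CX-5461, 6.82 CPM (6.18 to 7.51), a ratio of 1.85 (1.54 to 2.24). Dnmt3b, the more abundant of the catalytic pair in these cells, had 747 and 1150 UMIs, at 17.5 CPM (16.3 to 18.8) and 18.9 CPM (17.8 to 19.97). Its ratio of 1.08 had an interval of 0.981 to 1.18, which includes 1. Dnmt3l, their cofactor, had 568 and 802 UMIs, 13.3 CPM (12.2 to 14.5) and 13.1 CPM (12.3 to 14.1), with a ratio of 0.988 (0.886 to 1.10). The 3 genes together stood at 34.5 and 38.8 CPM. Within the catalytic pair, Dnmt3a took 17.4% of the UMIs in Control (14.95% to 19.997%) and 26.6% in CX-5461 (24.4% to 28.8%).

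Among the demethylation genes, Tet1 and Tet2 were lower with CX-5461 and Tet3 was higher. Tet1 had 2777 UMIs in Control and 2346 in CX-5461, 65.1 CPM (62.7 to 67.5) against 38.5 CPM (36.9 to 40.0), which is 1.69-fold lower (1.60 to 1.79). Tet2 had 980 and 825 UMIs, 23.0 CPM (21.5 to 24.4) and 13.5 CPM (12.6 to 14.5), 1.70-fold lower (1.55 to 1.86). The falls of Tet1 and Tet2 were thus nearly the same in size. Of all Tet UMIs, Tet1 took 72.7% in Control (71.2% to 74.1%) and 69.4% in CX-5461 (67.8% to 71.0%). Tet2 took 25.6% (24.3% to 27.1%) and 24.4% (23.0% to 25.9%). Tet3 had only 64 UMIs in Control, 1.4996 CPM (1.15 to 1.92), and 209 in CX-5461, 3.43 CPM (2.98 to 3.92), a ratio of 2.28 (1.72 to 3.07). Its share of Tet UMIs was 1.67% (1.29% to 2.13%) and 6.18% (5.39% to 7.05%). The 3 genes together stood at 89.5 CPM in Control and 55.4 CPM in CX-5461, since Tet3 remained the rarest member in both libraries.

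**Figure D1:**
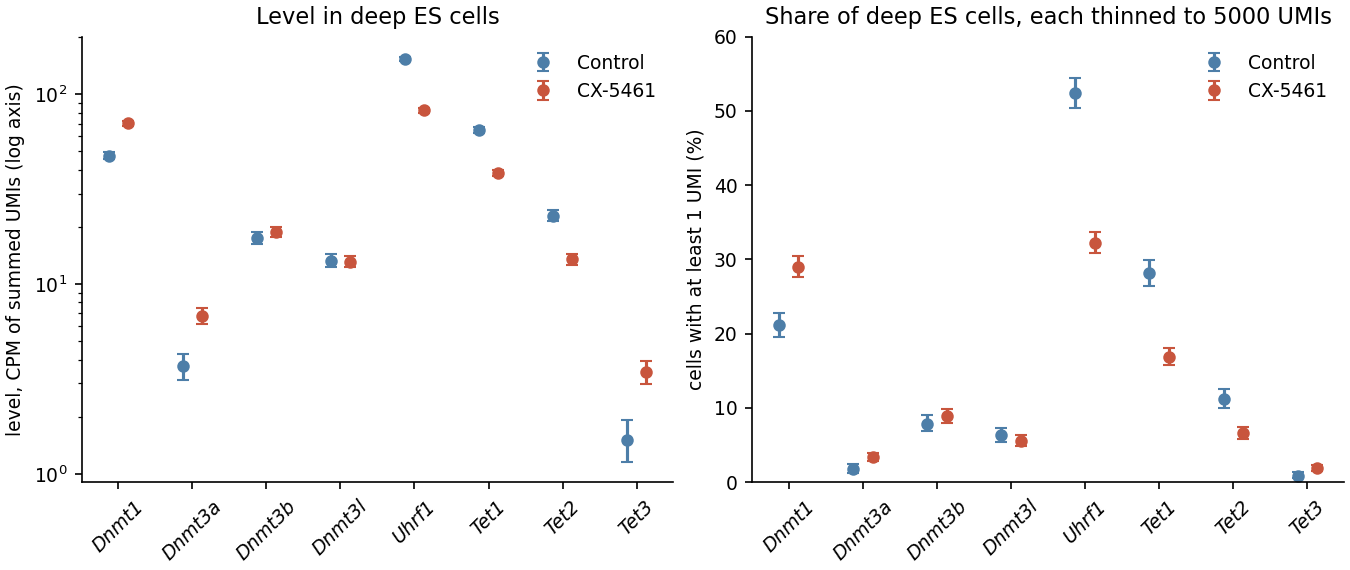
Left, level of each member in deep ES cells as CPM of summed UMIs on a log axis; right, percent of deep ES cells with at least 1 UMI after each cell was thinned to 5000 UMIs. Points are single libraries (blue Control, red CX-5461) and bars are 95% counting intervals; Uhrf1 has the highest Control level at 154 CPM and the widest gap in shares, 52.4% against 32.3%.

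The library scale matters for these ratios. Over the 11666 genes with at least 200 UMIs, the median log2 ratio of CX-5461 over Control was 0.35 on library totals, so more genes were higher than lower on that scale. Relative to that median, 20.8% of the genes were more than 1.5-fold higher and 17.0% were more than 1.5-fold lower. By the same rule 1 of 8 members was higher (Tet3, by 0.84 on the log2 scale) and 3 of 8 were lower (Uhrf1 at -1.25, Tet2 at -1.12 and Tet1 at -1.11). Dnmt3a at 0.54 and Dnmt1 at 0.21 were higher than the median gene without passing 1.5-fold, and Dnmt3b at -0.24 and Dnmt3l at -0.37 were lower than it. On library totals 35.4% of genes were past 1.5-fold higher and 7.77% past 1.5-fold lower, and of the members Dnmt3a joined Tet3 on the higher side. Thus the direction of Dnmt3b turned with the scale, and Dnmt3l, at -0.018 on totals, was below the median gene. Among all genes only 4.24% had a lower ratio than Uhrf1, 5.55% a lower one than Tet2 and 5.61% a lower one than Tet1. Tet3 lay above 84.9% of the genes and Dnmt1, which was not past 1.5-fold, above 63.3%.

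**Figure D2:**
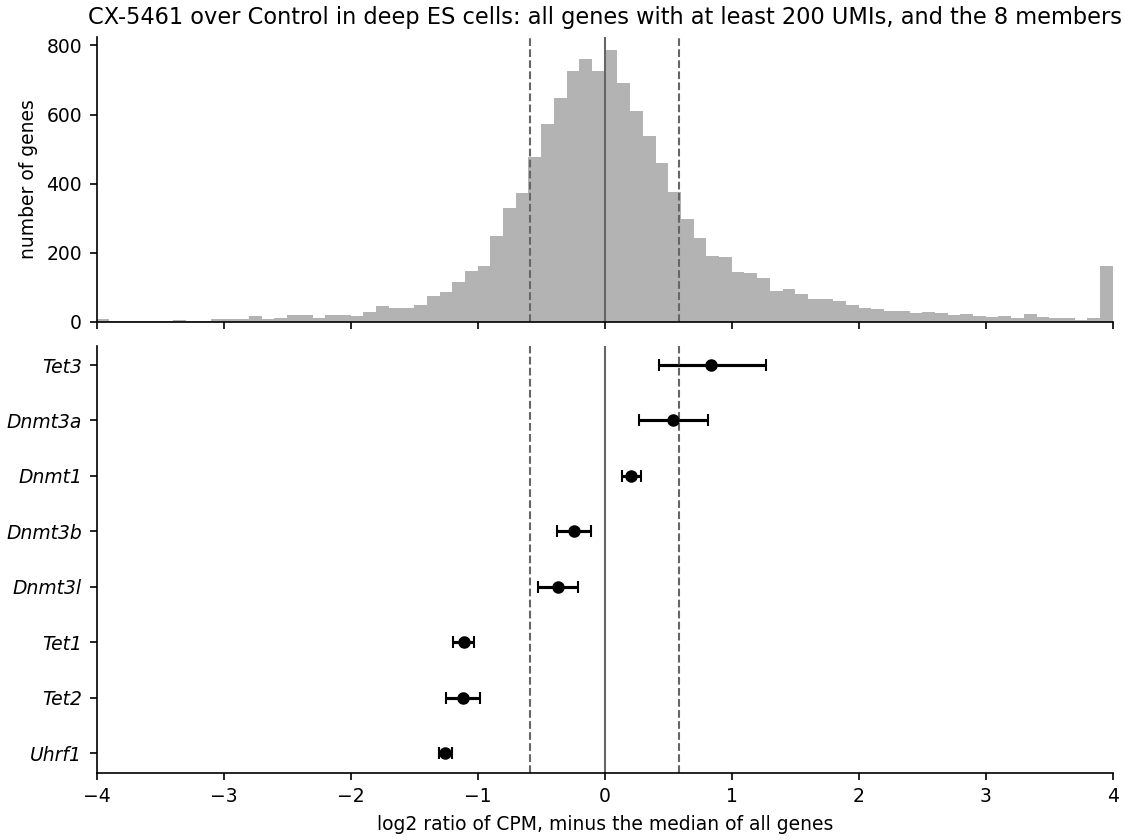
Top, number of genes by log2 ratio of CPM (CX-5461 over Control, deep ES cells) minus the median of all 11666 genes, with genes beyond 4 drawn in the end bins; bottom, the 8 members on the same axis with 95% counting intervals. The solid line marks the median gene and dashed lines mark 1.5-fold; Uhrf1, Tet2 and Tet1 lie left of the lower line and Tet3 right of the upper one.

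Shares of cells with a UMI were compared at matched depth. After each deep ES cell was thinned to 5000 UMIs, Uhrf1 had a UMI in 52.4% of the cells of Control (50.4% to 54.4%) and 32.3% of those of CX-5461 (30.8% to 33.8%). For Tet1 the shares were 28.1% and 16.9%, and for Tet2 11.2% and 6.63%. Dnmt1 was found in 21.2% and 29.0% of cells. Low-level members were rarely caught in a given cell: Dnmt3a in 1.78% and 3.33%, and Tet3 in 0.891% and 1.89%. Dnmt3b (7.86% and 8.90%) and Dnmt3l (6.32% and 5.59%) had overlapping intervals between libraries. Without thinning, Uhrf1 was found in 85.3% and 66.2% of cells and 2 or more of its UMIs in 66.0% and 33.5%. Feeder cells at the 0.1% limit, thinned alike, were set beside the ES cells. They showed Uhrf1 in 6.06% of Control and 0.649% of CX-5461 cells, Tet1 in 2.42% and 0.649%, and Dnmt3b in 0.606% and 0.649%. Their median depths before thinning were 21072 and 24133 UMIs. For Dnmt3a and Tet3 the feeder shares (2.42% and 6.49%, and 1.82% and 3.90%) were as high as or higher than in ES cells.

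Uhrf1 is known to be made mainly around S phase, and Dnmt3a and Dnmt3b to rise when cells leave the naive state. Deep ES cells were therefore split within each library into 4 groups of equal size by the share of their UMIs on lists of S-phase, G2/M and naive genes, none of which holds a member. Uhrf1 went with the S-phase list, from 120 CPM in the lowest group to 189 CPM in the highest in Control (ratio 1.58, 1.47 to 1.69) and from 68.5 to 95.7 CPM in CX-5461 (1.40, 1.29 to 1.52). The lowest Control group was therefore above the highest CX-5461 group. Dnmt1 hardly differed along that list in Control, at a ratio of 1.05 (0.920 to 1.20), and was 1.22-fold higher in CX-5461 (1.12 to 1.33). Dnmt3a was 2.67-fold higher in the highest S-phase group of Control (1.57 to 4.66) and 1.26-fold in CX-5461 (0.943 to 1.69). The S-phase genes as a list took 2218 CPM in Control and 2362 CPM in CX-5461.

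Tet1 and Tet2 went with the naive list when its highest and lowest groups were compared. Tet1 was higher in the group highest in naive genes by 1.60-fold in Control (1.44 to 1.79) and 1.55-fold in CX-5461 (1.37 to 1.76). Tet2 was higher there by 1.74-fold (1.45 to 2.11) and 2.03-fold (1.63 to 2.55). Dnmt1 showed ratios of 1.58 (1.39 to 1.80) and 1.23 (1.12 to 1.34), and Dnmt3b of 1.41 (1.14 to 1.75) and 1.14 (0.9503 to 1.36), so the de novo enzyme was not lower in the cells highest in naive genes. Uhrf1 was also higher there, by less, at 1.11 (1.04 to 1.20) and 1.16 (1.07 to 1.26), and Dnmt3a in CX-5461, at 1.41 (1.06 to 1.89), against 0.742 (0.441 to 1.23) in Control. Along the S-phase list Tet1 stood at 0.982 (0.880 to 1.10) in Control and 1.19 (1.06 to 1.34) in CX-5461. Dnmt3l, with 0.964 (0.754 to 1.23) and 0.890 (0.725 to 1.09), showed no difference past its interval. Zfp42 alone made up 49.6% of the UMIs of the naive list in Control and 31.9% in CX-5461. Along the G2/M list the ratios of all members lay between 0.795 and 1.54.

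A split by 16 p53 target genes was added after the data were seen, as this list was much higher with CX-5461 (3053 CPM in Control, 5209 CPM in CX-5461). Uhrf1 was lower in the group with the highest target share, by 1.27-fold in Control (1.18 to 1.36) and by 1.51-fold in CX-5461 (1.39 to 1.65). In CX-5461 Tet1 was 1.38-fold lower (1.22 to 1.56), Tet2 1.58-fold lower (1.27 to 1.98) and Dnmt3b 1.32-fold lower (1.11 to 1.58), whereas Tet3 was 1.79-fold higher (1.18 to 2.73) and Dnmt3l 1.34-fold higher (1.10 to 1.64). In Control Tet1 and Tet2 went the other way, at 1.15 (1.03 to 1.28) and 1.20 (1.01 to 1.44). Rps27l made up 61.2% of this list in Control and 44.6% in CX-5461. Between groups of the same rank in each of the 4 lists, the log2 ratio of CX-5461 over Control on totals was below 0 for Uhrf1, Tet1 and Tet2. It was above 0 for Dnmt1, Dnmt3a and Tet3, and that of Uhrf1 ranged from -1.12 to -0.66. Groups were cut in each library on its own, so those of the same rank were not matched in share. The median p53 target share was 0.393% in the highest Control group and 0.410% in the lowest CX-5461 group. Relative to the median gene, Dnmt1 stood at -0.02 in the lowest G2/M group. When groups were instead formed on both libraries together and weighted alike, the log2 ratio of Tet3 turned to -0.58, with only 44 Control cells in the highest group and 56 CX-5461 cells in the lowest, while Uhrf1 stood at -0.53 and Dnmt3b at 0.64.

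**Figure D3:**
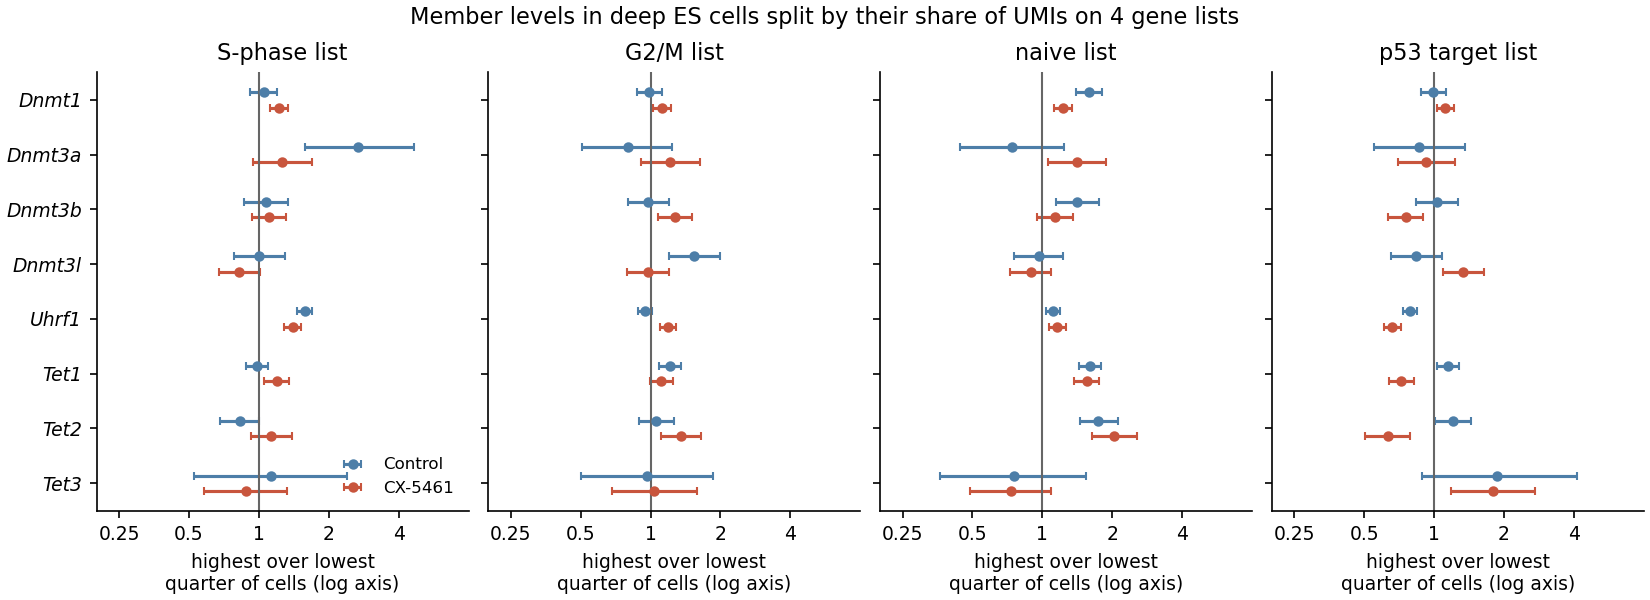
Ratio of each member's CPM in the deep ES cells highest in the share of UMIs on a list over those lowest in it (4 groups of equal size), on a log axis, for the S-phase, G2/M, naive and p53 target lists. Blue is Control, red is CX-5461, bars are 95% counting intervals and the line marks a ratio of 1; Uhrf1 lies to the right for the S-phase list (1.58 and 1.40) and Tet1 and Tet2 for the naive list (1.55 to 2.03).

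Feeder cells had a different set of members. At the 0.1% limit Tet3 stood at 6.67 CPM in Control (26 UMIs, 4.36 to 9.78) and 9.91 CPM in CX-5461 (38 UMIs, 7.01 to 13.6), which is 4.45-fold (2.71 to 7.12) and 2.89-fold (1.99 to 4.10) its level in deep ES cells of the same library. Dnmt3a stood at 4.62 CPM (18 UMIs, 2.74 to 7.30) and 12.3 CPM (47 UMIs, 9.01 to 16.3). It was 1.26-fold (0.725 to 2.05) and 1.80-fold (1.30 to 2.43) its ES level, and it took 72.0% and 94.0% of the UMIs of the catalytic pair. Dnmt3l stood at 11.5 CPM (45 UMIs, 8.42 to 15.5) in Control and 8.61 CPM (33 UMIs, 5.92 to 12.1) in CX-5461. On library totals this was 0.868 (0.626 to 1.18) and 0.655 (0.448 to 0.927) of its ES level, with only the CX-5461 interval below 1. Relative to the median gene between these classes in CX-5461, its log2 ratio was -0.25 (-0.80 to 0.25), which includes 0. Dnmt3l is known mainly from germ cells and pluripotent cells. In GENCODE its 5′ part overlaps Aire on the opposite strand, and Dnmt3a, Dnmt3b, Tet2 and Tet3 also have an overlapping gene on the other strand (Dnmt3aos, Dnmt3bos, Gm42567 and B230319C09Rik). The strand setting of the counting is not given in the sources used here, so UMIs of such pairs may not be told apart.

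The remaining members were low in feeders. Dnmt1 was at 16.7% and 6.68% of its ES level, Uhrf1 at 9.02% and 5.71%, Dnmt3b at 10.3% and 4.15%, Tet1 at 7.49% and 6.10%, and Tet2 at 27.9% and 30.9%. As a gauge of ES RNA in these droplets, Pou5f1, Zfp42, Dppa5a and Tdgf1 stood at 4.27% to 5.82% of their ES level in Control feeders and at 2.40% to 3.15% in CX-5461 feeders. Dnmt3a, Dnmt3l, Tet2 and Tet3 were thus far above that gauge in feeders of both libraries. The counting intervals of Dnmt1 and Uhrf1 also lay above the range of the gauge in both libraries. For Dnmt3b, with 7 and 3 UMIs, and for Tet1, with 19 and 9, the counting interval overlaps the range of the gauge in both libraries.

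Between the conditions, feeder Dnmt3a at the 0.1% limit was 2.65-fold higher with CX-5461 (1.51 to 4.85) and Uhrf1, at 13.9 CPM (54 UMIs, 10.4 to 18.1) and 4.69 CPM (18 UMIs, 2.78 to 7.42), was 2.95-fold lower (1.70 to 5.35). The gauge of ES RNA was also lower in CX-5461 feeders, and its part in the Uhrf1 value was not tested. The intervals of the other members included 1: Tet3 1.49 (0.879 to 2.55), Dnmt3l 0.745 (0.461 to 1.19), Dnmt1 0.590 (0.311 to 1.09), Tet2 0.650 (0.324 to 1.27), Tet1 0.481 (0.192 to 1.12) and Dnmt3b 0.436 (0.0727 to 1.91), the last from 7 and 3 UMIs. At the stricter limit of 0.5% the 23 Control feeders gave 2 to 7 UMIs per member, and no member's interval excluded 1, Dnmt3a included, at a ratio of 1.78 (0.538 to 9.27). Dnmt3b had 2 UMIs in these Control cells and 0 in 76 CX-5461 cells, which allows up to 1.64 CPM by the same limit of 3 counts that is used for every 0.

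**Figure D4:**
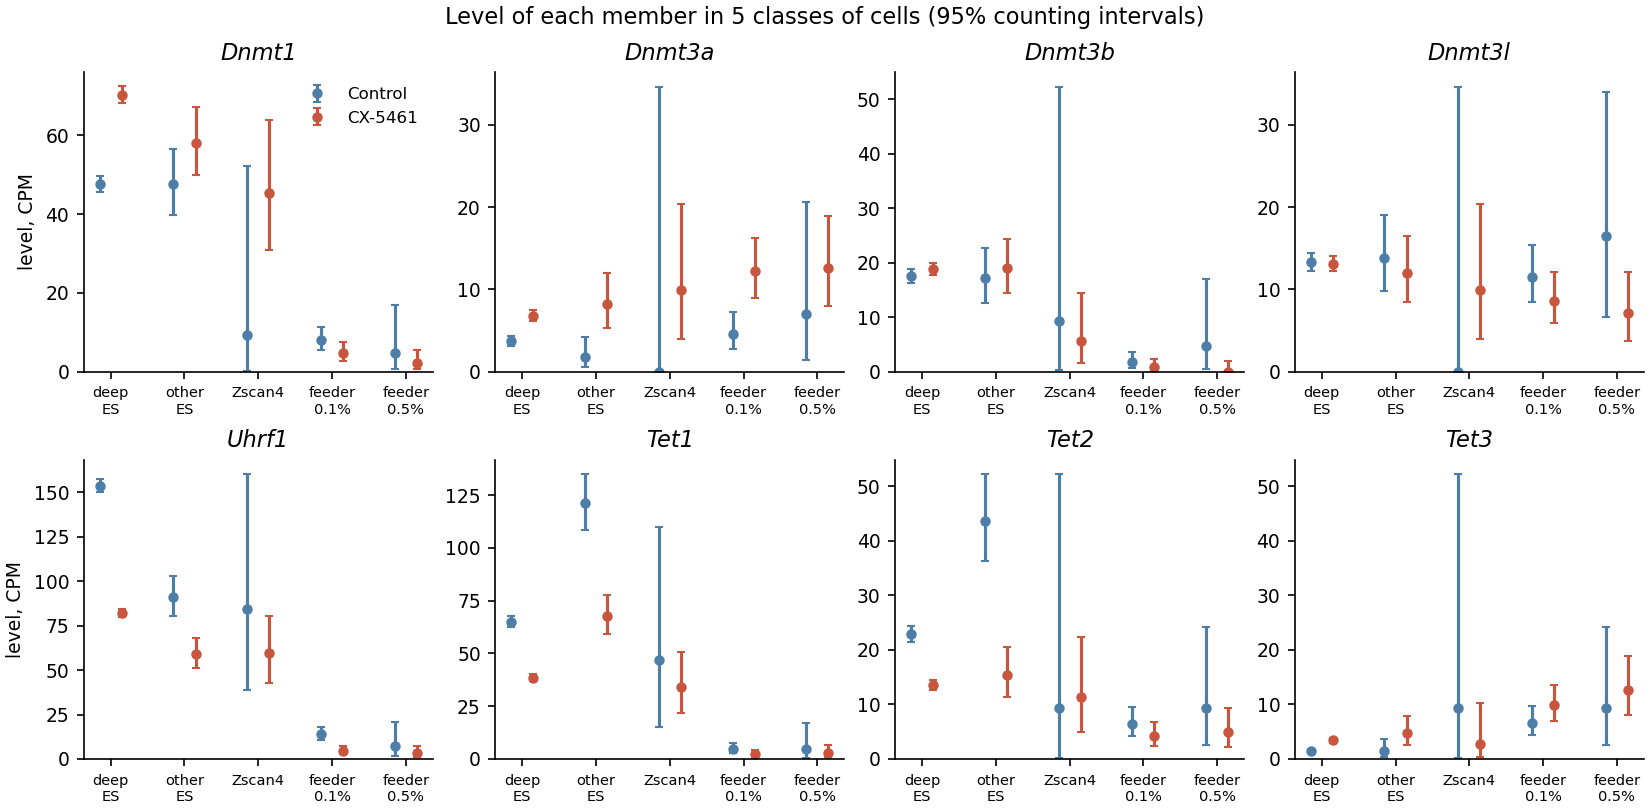
Level of each member in CPM (linear axis from 0, a scale of its own for each gene) in deep ES cells, in ES cells that were shallower or more mitochondrial (other ES), in cells with 5 or more Zscan4a-f UMIs and in feeders at both limits. Blue is Control, red is CX-5461, and bars are 95% counting intervals; Tet3 and Dnmt3a are highest in feeders, while Uhrf1, Tet1, Dnmt1 and Dnmt3b are low there.

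The 2-cell-like state is known for falling DNA methylation. In the 51 CX-5461 cells with 5 or more Zscan4a-f UMIs, of 706641 UMIs in all, Dnmt3b had 4 UMIs, 5.66 CPM (1.54 to 14.5), which is 3.33-fold lower than in deep ES cells of that library (1.30 to 12.2). Dnmt1 had 32 UMIs, 45.3 CPM (31.0 to 63.9), or 0.644 of its ES level (0.440 to 0.911), and Uhrf1 had 42 UMIs, 59.4 CPM (42.8 to 80.3), or 0.723 of it (0.520 to 0.978). The intervals of the other members included 1: Dnmt3a with 7 UMIs at 1.45 (0.580 to 3.02), Dnmt3l with 7 at 0.753 (0.302 to 1.56), Tet1 with 24 at 0.883 (0.565 to 1.32), Tet2 with 8 at 0.837 (0.360 to 1.66) and Tet3 with 2 at 0.826 (0.0994 to 3.02). The median log2 ratio of 14348 genes between these classes was -0.12, and 26.2% of the genes had a lower ratio than Dnmt1, 31.7% a lower one than Uhrf1 and 12.2% a lower one than Dnmt3b. Relative to the median gene the log2 interval of Uhrf1, from -0.82 to 0.091, includes 0. With a limit of 3 Zscan4a-f UMIs the log2 ratio of Uhrf1 was -0.22 (-0.59 to 0.13), and with a limit of 20 those of Dnmt1 (-1.43 to 0.41) and Dnmt3b (-7.30 to 0.49, from 1 UMI) had intervals that include 0.

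Control held 9 such cells with 106446 UMIs. Uhrf1 had 9 of them, Tet1 had 5, and Dnmt1, Dnmt3b, Tet2 and Tet3 had 1 each. Uhrf1 stood at 84.5 CPM (38.7 to 161) and Tet1 at 47.0 CPM (15.3 to 110). Dnmt3a and Dnmt3l were at 0, which allows up to 28.2 CPM when 3 counts are taken as the limit of a 0. Between the conditions the ratio within these cells was 0.703 for Uhrf1 (0.337 to 1.64) and 0.723 for Tet1 (0.270 to 2.43), so no difference was detectable at this depth. In the CX-5461 cells thinned to 5000 UMIs, 18.0% showed Uhrf1 (8.58% to 31.4%), 20% Dnmt1 (10.0% to 33.7%) and 8% Tet1 (2.22% to 19.2%).

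The partners of the members in the pathway were read in deep ES cells on the scale relative to the median gene, by lists of other genes. Over all genes tested 20.8% were higher and 17.0% lower by 1.5-fold, and the counts of each list stand beside those shares. Of 12 maintenance partners, all past 200 UMIs, 0 were higher and 4 were lower by 1.5-fold, and the list median was -0.45. The lowest were Cdca7 at -1.34 and Hells at -1.21, which form a chromatin remodelling complex needed for maintenance, followed by Cdca7l at -1.08, a relative of Cdca7. Hells stood at 273 CPM in Control and 150 CPM in CX-5461. The highest were Dppa3 at 0.35, which can hold Uhrf1 away from chromatin, Uhrf2 at 0.24, the paralog of Uhrf1, and Zfp445 at 0.15, an imprint-protecting zinc finger protein. Hells also belongs to the S-phase list, of which 0 of 26 were higher and 6 lower (median -0.29), with Hells, Ung at -1.06 and Pcna at -0.76 lowest and Tipin at 0.44, Cdc45 at 0.38 and Rfc2 at 0.31 highest.

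For the de novo side, 0 of 11 partners were higher and 3 were lower (median -0.27): Pcgf6 at -0.92 and E2f6 at -0.83, of a repressor complex at germline promoters, and Ehmt1 at -0.86, a histone H3K9 methyltransferase. Prdm14, which keeps Dnmt3 genes low in ES cells, stood highest at 0.39, followed by the histone H3K36 methyltransferases Setd2 at 0.22 and Nsd1 at 0.16. Of 18 genes of oxidation and repair, 16 passed the minimum, 3 were higher and 4 lower (median -0.27). Sinhcaf, a Sin3 complex subunit, was lowest at -1.78 (79.3 and 29.4 CPM), followed by Ung at -1.06, the uracil glycosylase, and Gadd45b at -1.03. Neil3 at 1.74 and Xrcc1 at 0.99, which act in base excision repair, and Ogt at 0.61, a glycosyltransferase that binds Tet proteins, were highest.

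Genes that supply the methyl group were read in the same way. In the methyl donor cycle 0 of 12 genes were higher and 3 lower (median -0.30). These were Mthfd2 at -1.71, a mitochondrial folate enzyme, Mat2a at -1.64, which makes S-adenosylmethionine, and Amd1 at -1.13, which decarboxylates it. Mat2a stood at 277 CPM in Control and 114 CPM in CX-5461. Mthfd1 at 0.45 and Mtrr at 0.14 were among the highest.

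Readers and targets of the mark gave no single direction. Of 10 methyl-CpG readers 7 passed the minimum, with 1 higher and 1 lower and a median of 0.51, although the UMIs of the list summed together were lower than the median gene by 0.33 on the log2 scale. Mbd3, the most abundant of them at 78.8 and 62.3 CPM, was at -0.69 and Mbd4 at -0.11, while Mbd6 at 0.63, Mbd1 at 0.56 and Zbtb38 at 0.54 were highest. Of 15 germline genes known for promoter methylation 9 passed the minimum, with 4 higher and 2 lower (median -0.05): Tex101 at 2.90, Hormad1 at 2.04 and Taf7l at 1.28 were highest and Dazl at -0.84, Rpl10l at -0.59 and Stk31 at -0.12 lowest. Of the 12 naive genes 0 were higher and 2 lower (median -0.19), with Zfp42 at -1.24, Tcl1 at -0.76 and Tfcp2l1 at -0.49 lowest and Klf4, at 0.20, next to Prdm14 and Dppa3 at the top. Of 11 formative genes 5 passed the minimum, with Cd24a higher at 1.37 and Etv4 at -1.15, Utf1 at -0.80 and Etv5 at -0.72 lower. In G2/M 2 of 20 genes were higher and 2 lower (median -0.03), with Bub1b at 0.84, Hmmr at 0.74 and Mki67 at 0.37 highest and Plk1 at -0.69, Ccnb1 at -0.59 and Aurka at -0.48 lowest. Among the p53 targets 11 of 16 were higher (median 1.21), led by Pmaip1 at 3.28, Btg2 at 2.89 and Plk2 at 2.61, with Rps27l at -0.04, Aen at 0.10 and Bax at 0.38 lowest. On library totals the list medians were above 0 for all lists but the maintenance partners and the formative genes.

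**Figure D5:**
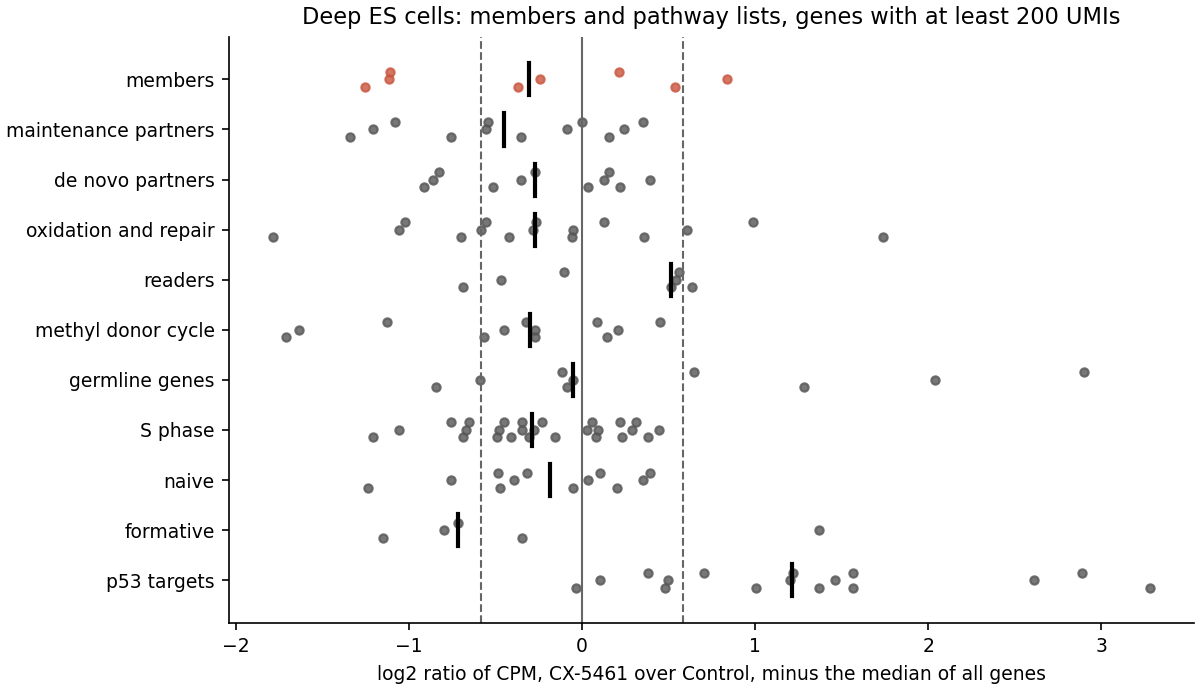
Log2 ratio of CPM, CX-5461 over Control in deep ES cells, minus the median of all genes, for the 8 members (red) and for each gene with at least 200 UMIs of 10 lists (grey). Black bars are list medians, the solid line is the median gene and dashed lines mark 1.5-fold; p53 targets lie to the right (median 1.21) and maintenance partners to the left (median -0.45).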

How the data were processed

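Droplet single-cell RNA-seq (10x Genomics 3′ v2) of untreated and CX-5461-treated mES cells was used. Unnormalised UMI counts, 1 column per barcode, were deposited by the authors, made with a published droplet pipeline, and their processing notes name Seurat 2.3.4 and mm10. Their cell filters are not applied in the tables. Barcodes are numbered serially, so droplets shared by libraries could not be counted. A column of counts shared with other genes was 0 for all 8 members.

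Symbols were taken from GENCODE for GRCm38, for 54079 of 54146 identifiers. Levels are CPM of summed UMIs per class. Intervals are Poisson for levels, conditional binomial for ratios and Clopper-Pearson for shares. Deep ES cells had at least 5000 UMIs, at most 10% mitochondrial UMIs, under 0.1% on feeder markers, 3 or more UMIs of 10 ES markers and under 5 of Zscan4a-f. The other classes had at least 500 UMIs and at most 20% mitochondrial. No doublet caller was run and no doublets were removed. A gene was called when past 1.5-fold relative to the median of genes with at least 200 UMIs. All members were named, and of each list the 3 highest and 3 lowest genes past that minimum, except for some that are not reported here. The members and lists were chosen with earlier results of these data known. Ratios, their intervals and calls were tested on simulated counts. Thinning was checked against its expected sum on the real Uhrf1 counts of some Control cells. Python 3.11.15, numpy 2.4.6, scipy 1.17.1, pandas 2.3.3 and, for TMM, edgeR 4.0.16 were used; clustering used scanpy 1.11.5 with 2000 variable genes, 16 components, 15 neighbours and Leiden at resolution 0.5. Library totals were 49610287 and 69841836 UMIs. Other scalings, depth limits and class limits were tried.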

Additional observations from a re-analysis of the deposited data

How the results depend on the processing

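No paired analysis was possible because each condition is 1 library whose barcodes carry no replicate number, and no replicate could be left out. Uhrf1, Tet1 and Tet2 stayed called lower in deep ES cells under each of the 12 alternatives tried. Of these, TMM and median-of-ratios scaling shift all genes alike, so they could not change a call made relative to the median gene. Scaling by TMM, which shifts ratios by 0.37, gave log2 ratios of 0.19 for Dnmt1, 0.52 for Dnmt3a, -0.26 for Dnmt3b, -0.39 for Dnmt3l, -1.27 for Uhrf1, -1.13 for Tet1 and -1.13 for Tet2, and median-of-ratios scaling gave 0.21, 0.54, -0.24, -0.37, -1.25, -1.11 and -1.12 in that order. Uhrf1 was at -0.97 with the mean of each cell's CPM and at -1.01 after thinning. The number of members called higher was 2 with the lower depth limit of 500 UMIs and a mitochondrial limit of 20%, and 2 on library totals, with Dnmt3a added, and 0 after thinning, where Tet3 fell under the minimum of 200 UMIs. Standardising over 4 groups of the p53 target share, formed on both libraries together and chosen after seeing the data, gave 0.64 for Dnmt3b, -0.53 for Uhrf1 and -0.58 for Tet3, whose direction reversed; the highest group held 44 Control cells and the lowest 56 CX-5461 cells. For feeders with markers at 1%, where Control had 1 cell, Tet3 was at -2.86. For cells with at least 20 Zscan4a-f UMIs (3 in Control, 16 in CX-5461) over deep ES cells, Uhrf1 was at -2.15 in Control and -0.95 in CX-5461, and Tet1 at -1.43 in CX-5461; without the Control cell with the most UMIs Tet1 was at -2.43. Thinning changed the difference in share of cells (CX-5461 minus Control, percentage points) to 1.54 for Dnmt3a, -11.2 for Tet1, -4.59 for Tet2 and 0.999 for Tet3, and reversed that of Dnmt3b from -0.55 to 1.04. The cause of these changes was not tested. Of 161 recomputed values, 129 lay within the counting error of the reported value or, for counts of members, within 1.5-fold. With 1 library per condition the spread between cultures is unknown, and levels of Tet3 and Dnmt3a and all values in feeders and Zscan4 cells are limited by few UMIs.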

Other observations

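In ES cells below the limits set for deep cells (at least 500 UMIs but shallower or more mitochondrial; 1093 in Control with a median of 2272 UMIs, 518 in CX-5461 with 5498.5), the members differed from deep ES cells of the same library. Tet1 was 1.86-fold higher there in Control (1.66 to 2.09) and 1.77-fold higher in CX-5461 (1.53 to 2.03), at 121 and 67.9 CPM. Tet2 was 1.90-fold higher in Control (1.56 to 2.30) and 1.14-fold in CX-5461 (0.840 to 1.53). Uhrf1 went the other way, at 0.593 (0.520 to 0.673) and 0.718 (0.617 to 0.831) of its level in deep cells. The median mitochondrial share of these cells was 12.2% and 15.7%. Between conditions Uhrf1 was at a ratio of 0.648 (0.534 to 0.787), Tet1 at 0.560 (0.469 to 0.666), Tet2 at 0.354 (0.249 to 0.497) and Dnmt3a, from 5 and 26 UMIs, at 4.51 (1.70 to 15.03). Dnmt1 was at 1.22 (0.968 to 1.54), which includes 1, and relative to the median gene of these cells it stood at -0.15 on the log2 scale, against 0.21 in deep cells. Tet3, from 4 and 15 UMIs, was at 3.25 (1.04 to 13.5), Dnmt3b at 1.11 (0.743 to 1.66) and Dnmt3l at 0.867 (0.538 to 1.40).

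Across deep ES cells the members varied almost independently of each other in these sparse counts: the highest Pearson r among 28 pairs was 0.116 in Control (Dnmt1 and Tet1, 2469 cells) and 0.0850 in CX-5461 (Tet1 and Tet2, 3968 cells). Among 11666 genes, those whose pattern was most like that of Uhrf1 were H2afz, a histone variant (mean r over the libraries 0.179), Fkbp4, a co-chaperone (0.166), and Ube2s, an enzyme of mitotic ubiquitination (0.158). Tet1 had 1 gene past a mean r of 0.15, Olfr1388, at 0.155, and the other members had none. Cells of 1 library share its depth, and these values describe the likeness only.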
